A study of Mus musculus with 94 samples.

Results

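In INDO-treated 4T1 tumors, more genes were called on day 1 and on day 23 than on the days between, each day being set against the other 4. Most genes of mitosis and some of the matrix, Col1a1 among them, were higher on day 1, when many chemokines and most genes of antigen presentation and cytotoxic lymphocytes were lower. Macrophage genes such as Arg1 were higher on day 7, and most MHC class II genes were higher on day 15. On day 23 neutrophil genes and the protocadherin beta cluster were higher, and most stromal and interferon-stimulated genes lower. The account rests on the 25 tumors of mice given INDO alone, of 94 tumors in the study, chosen by their treatment label, with 5 tumors on each of days 1, 3, 7, 15 and 23.

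The study asked whether COX inhibition changes how 4T1 tumors respond to irradiation. All 94 tumors grew from injected 4T1 cells, a line of murine triple-negative mammary carcinoma, placed under the skin of the right hind limb of female BALB/c mice of 8 weeks with a working immune system. INDO tumors came from mice given indomethacin at 30 mg/L in the drinking water without irradiation, and days count from the irradiation of the study's irradiated groups. The groups set beside them are 24 tumors of 6 Gy + INDO (5, 4, 5, 5 and 5 by day) and 20 untreated controls (4, 5, 5, 3 and 3 by day). All tumors descend from 1 cell line, and a tumor was sampled once. Within INDO tumors, time on the drug, time since implantation and tumor growth run together and cannot be told apart.

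Indomethacin blocks both cyclooxygenases, COX1 and COX2 (genes Ptgs1 and Ptgs2), and so the step from arachidonic acid to prostaglandin H2, from which PGE2 and the other prostaglandins are made. PGE2 acts through the EP receptors on myeloid cells and lymphocytes and dampens cytotoxic immunity. The drug blocks the enzyme and not its mRNA, so RNA cannot show whether prostaglandin synthesis was inhibited. 4T1 tumors are known for secreting G-CSF and for drawing neutrophils and immature myeloid cells as they grow.

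Levels are given as CPM, counts of a gene per 1 M counts of a library scaled by TMM, a factor that sets aside a few dominant genes. INDO libraries held 24 to 89.0 M expected counts (median 41.0 M), against a median of 73.4 M in controls. Epithelial genes of the tumor summed to 2256 to 5109 CPM in all 25 tumors, and Epcam, Krt8 and Krt18 averaged over 200 CPM on each day, so the tissue matched its label. Other tissue was present unevenly. Skeletal muscle genes summed to 29 to 18720 CPM, with medians of 922, 525, 7959, 68.6 and 45.2 CPM on days 1, 3, 7, 15 and 23, and skin genes to 2.15 to 1587 CPM. A trio of tumors stood apart: day 1 replicate 5 and day 15 replicate 3 carried 338 and 717 CPM of reads on olfactory and vomeronasal receptor genes, against 53.9 to 130.3 CPM in the other 23, and day 3 replicate 3 carried 1585 CPM of B cell genes and 738 CPM of T cell genes. Results were therefore also computed without these 3 tumors.

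Of 20897 genes tested, 6230 differed between days in INDO tumors (29.8%; edgeR quasi-likelihood F test, adjusted p under 0.05), and 2565 of them had day means at least 1 log2 unit apart. The median distance between the highest and the lowest day was 0.84 log2 units. The called genes had their highest mean on day 23 in 2117 cases (34%, against 24.9% of all tested genes). On day 1 it was 1830 (29.4%), near the 28.1% of all tested genes. On days 3, 7 and 15 it was 650, 1137 and 496 (10.4%, 18.3% and 7.96%, against 16.6%, 19.8% and 10.6%). The lowest mean fell on day 1 in 2202 cases (35.3%, against 25.2% of all tested genes) and on day 23 in 2067 (33.2%, against 27.9%). The commonest course, lowest on day 1 and highest on day 23, was shown by 1316 genes, and the opposite one by 1088. Day means increased at each of the steps in 468 called genes (7.51%, against 3.53% of all tested genes) and decreased in 305 (4.9%, against 2.94%).

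**Figure D1:**
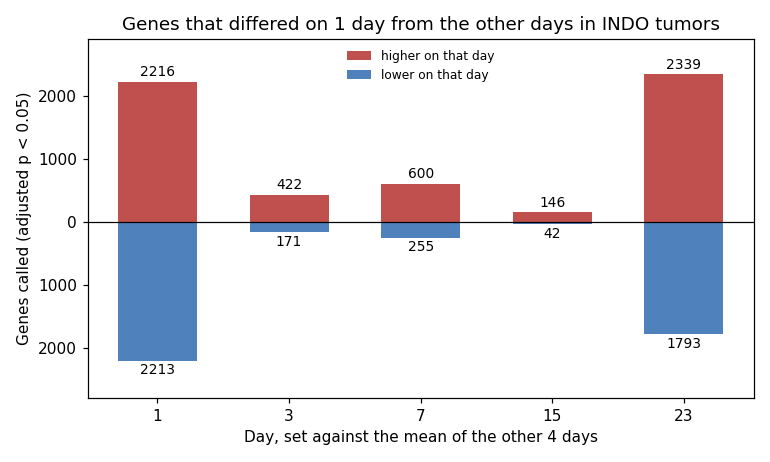
Number of genes called higher (bars above 0) or lower (bars under 0) on each day against the mean of the other 4 days in 25 INDO tumors, 5 a day (adjusted p under 0.05, edgeR). Days 1 and 23 stood out with 2216 and 2339 genes higher, against 146 on day 15.

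Against the mean of the other 4 days, 2216 genes were higher (10.6%) and 2213 lower (10.6%) on day 1, and 2339 were higher (11.2%) and 1793 lower (8.58%) on day 23. The days between were called for fewer genes. On day 3, 422 genes were higher (2.02%) and 171 lower (0.818%), on day 7 600 higher (2.87%) and 255 lower (1.22%), and on day 15 146 higher (0.699%) and 42 lower (0.201%). Scaling by 14 housekeeping genes moved the day 1 split to 2730 higher and 1464 lower, the day 3 split to 275 and 731, and the day 15 split to 229 and 24.

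Cell division genes led the day 1 pattern. Of 24 genes of mitosis and G2 phase, 22 were higher on day 1 (10.6% of all genes), with a median log2 difference of 0.53 against 0.01 over all genes, and 11 were lower on day 23 (8.58% of all genes). Leaving out the 3 tumors that stood apart, 16 were higher on day 1 and 14 lower on day 23. Of 24 DNA replication genes 9 were higher on day 1, 5 without those 3 tumors and 13 under housekeeping scaling. Promoters of Bub1b and Plk1, of the mitotic list, are shown with the letters of the CHR element TTTGAA, a site through which the DREAM complex acts, and of the CCAAT box bound by NF-Y.
Bub1b (chr2:118597961-118598260, plus strand): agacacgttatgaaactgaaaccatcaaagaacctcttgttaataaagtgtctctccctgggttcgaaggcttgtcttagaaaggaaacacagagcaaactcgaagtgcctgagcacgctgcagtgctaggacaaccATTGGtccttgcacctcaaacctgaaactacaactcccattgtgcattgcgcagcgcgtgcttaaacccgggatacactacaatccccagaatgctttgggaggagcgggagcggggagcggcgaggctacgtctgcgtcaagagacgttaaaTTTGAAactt
Plk1 (chr7:122159185-122159484, plus strand): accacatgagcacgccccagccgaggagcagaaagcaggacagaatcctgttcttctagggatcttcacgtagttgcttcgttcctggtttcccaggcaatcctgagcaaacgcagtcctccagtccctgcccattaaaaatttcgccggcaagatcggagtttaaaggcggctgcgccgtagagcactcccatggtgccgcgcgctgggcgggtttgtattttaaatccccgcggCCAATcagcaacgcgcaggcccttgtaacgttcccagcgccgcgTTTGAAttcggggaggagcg
These windows run from 250 bases before to 50 after the RefSeq start (GRCm38.p6), with TTTGAA and CCAAT, on either strand, in capitals. Of the 21 mitotic genes with a RefSeq window, called or not, 16 (76.2%) held TTTGAA and 18 (85.7%) held CCAAT, against 20.2% and 41.1% of 27025 genes. A match is only a run of letters and was not tested as a site.

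Bub1b, which encodes the spindle checkpoint kinase BUBR1, measured 68.7, 91, 69.7, 75.7 and 77.6 CPM at day 1, 62.4, 66.3, 40.4, 68.3 and 62.9 at day 3, 51.3, 46.6, 48.2, 51 and 52.5 at day 7, 51.2, 52.3, 51.2, 49.9 and 61.4 at day 15, and 36.4, 29.8, 53.7, 36.2 and 46.8 at day 23 in the single tumors. Every day 1 tumor was above every later tumor, and day 23 overlapped days 3 to 15. The log2 difference from the other days was 0.64 ± 0.10 (SE, adjusted p = 0.000112) on day 1 and -0.57 ± 0.11 (SE, adjusted p = 0.000956) on day 23. Plk1, the polo-like kinase of mitotic entry, measured 36.2, 40.8, 32.8, 45.5 and 42.3 CPM at day 1, 16.5, 28.3, 19.9, 29.2 and 24.4 at day 3, 23, 27.2, 28, 29.1 and 25.7 at day 7, 23.7, 23.4, 20.4, 21.7 and 44.5 at day 15, and 16.7, 10.7, 23.8, 14.9 and 21.1 at day 23, with 1 day 15 tumor at 44.5 CPM among the day 1 values. Its differences were 0.80 ± 0.15 (SE, adjusted p = 0.000687) on day 1 and -0.74 ± 0.17 (SE, adjusted p = 0.00405) on day 23. Mki67, the proliferation marker, averaged 615, 485, 364, 480.1 and 402 CPM on days 1, 3, 7, 15 and 23 and was higher on day 1 by 0.56 ± 0.12 (SE, adjusted p = 0.00167). Nusap1, a spindle protein, Cenpa, the centromeric histone, and the replication genes Cdc6 and Rrm2 were higher on day 1 by 0.77, 0.50, 0.70 and 0.69 log2 units. Cdk1 and Ccnb1, the kinase and cyclin of mitotic entry, averaged 92 and 66.5 CPM on day 1 and were not called between days (adjusted p = 0.523 and 0.36).

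Egr1, an immediate early transcription factor, was at its highest on day 1. It measured 38.2, 41.6, 36.9, 61.5 and 49.7 CPM at day 1, 9.64, 21.8, 34.5, 32 and 18.4 at day 3, 10.1, 30.6, 18.3, 13.7 and 7.5 at day 7, 15.8, 11.1, 6.66, 11.8 and 19.4 at day 15, and 15.6, 7.2, 12.8, 22 and 17.7 at day 23. No day 1 tumor overlapped any later one, and the log2 difference was 1.51 ± 0.26 (SE, adjusted p = 0.000318). The other immediate early genes did not follow it: of 17, 1 was higher and 3 lower on day 1, among them Fos, with -1.61 ± 0.46 (SE, adjusted p = 0.0144), and Atf3, with -0.95 ± 0.21 (SE, adjusted p = 0.00244). The genes with the largest day 1 excess and no overlap were Sox7, an endothelial transcription factor, and Nptxr, a neuronal pentraxin receptor, beside Egr1, the transcription factor gene Pou4f1 and the calcium channel gene Cacna1g. Sox7 averaged 9.1, 3.95, 2.61, 2.76 and 1.84 CPM from day 1 to day 23 (log2 difference 1.79 ± 0.23 SE, adjusted p = 1.77e-05) and Nptxr 146, 80.4, 56.2, 37.3 and 45.5 CPM (log2 difference 1.52 ± 0.16 SE, adjusted p = 2.11e-06). Among genes called on day 1 and between days, with a mean log2 CPM not under 1, 72 had every day 1 tumor above the other 20 tumors. In 164 such genes every day 1 tumor was below them. Over all genes 10.6% were called each way, and the share of all genes without overlap was not counted.

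The genes lowest on day 1 were led by chemokine and myeloid genes. Of 24 inflammatory cytokines and chemokines, 23 differed between days, 15 were lower and 1 higher on day 1 (10.6% of all genes each way), and 9 were higher and 6 lower on day 23 (11.2% and 8.58%), or 4 and 4 with muscle reads as a covariate. Their median log2 difference on day 1 was -1.25, against 0.01 over all genes, and without the 3 tumors that stood apart 15 were still lower. The promoter of Cxcl2, the neutrophil chemokine MIP-2, is shown with the letters GGNNNTTCC, the core of sites that NF-κB can bind, on either strand, in capitals (250 bases before to 50 after the start, GRCm38.p6).
Cxcl2 (chr5:90903649-90903948, plus strand): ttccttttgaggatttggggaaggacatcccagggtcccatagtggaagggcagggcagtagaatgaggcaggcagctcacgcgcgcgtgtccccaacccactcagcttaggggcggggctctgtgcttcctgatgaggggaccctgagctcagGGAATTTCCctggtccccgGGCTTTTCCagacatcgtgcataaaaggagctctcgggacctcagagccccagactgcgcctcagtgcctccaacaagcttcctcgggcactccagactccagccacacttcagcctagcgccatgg
It held the letters at 2 places, and 9 of the 15 genes of the list with a RefSeq window held them (60%), against 20.7% of all genes.

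Cxcl2 measured 1.16, 0.826, 0.856, 1.26 and 0.895 CPM at day 1, 2.16, 5.02, 6.98, 2.23 and 3.59 at day 3, 8.25, 34.4, 25.6, 30.02 and 15.4 at day 7, 50.01, 4.74, 9.21, 22.6 and 3.26 at day 15, and 61.2, 7.34, 30.1, 99.7 and 60.2 at day 23. Day 1 lay below every later tumor, whereas the day 15 and day 23 tumors spread from 3.26 to 50.01 and from 7.34 to 99.7 CPM and overlapped. The log2 difference was -4.05 ± 0.66 (SE, adjusted p = 0.000167) on day 1, 1.56 ± 0.44 (SE, adjusted p = 0.0481) on day 7 and 2.98 ± 0.42 (SE, adjusted p = 6.39e-05) on day 23. Acod1, which makes itaconate in activated macrophages, and Osm, oncostatin M, averaged 3.3 ± 1.2 and 2.61 ± 1.02 CPM on day 1 (SD, n = 5). Their log2 differences on that day were -3.11 ± 0.46 (SE, adjusted p = 7.38e-05) and -2.35 ± 0.45 (SE, adjusted p = 0.000794), and that of Hcar2, a receptor for ketone bodies and niacin, was -3.09 ± 0.50 (SE, adjusted p = 0.000161). Il1b, the inflammasome cytokine IL-1β, measured 25.4, 33.6, 29.1, 35.5 and 32.6 CPM at day 1, 66.3, 70.5, 60.1, 38.6 and 67.7 at day 3, 83.8, 217, 169, 158 and 106 at day 7, 193, 69.6, 67.7, 135 and 77.2 at day 15, and 259, 68.3, 242, 507 and 328 at day 23. All day 1 tumors were below all later ones, and 4 of 5 day 23 tumors were above all others. Its differences were -2.0 ± 0.33 (SE, adjusted p = 0.000188) on day 1 and 1.88 ± 0.26 (SE, adjusted p = 4.2e-05) on day 23.

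The chemokines did not all keep climbing. Cxcl1, another ligand of CXCR2, averaged 16.4, 49.1, 64, 39.5 and 108 CPM and Csf3, which encodes G-CSF, 21.7, 40.1, 70.5, 36.8 and 83.8 CPM on days 1 to 23, and both were higher on day 23 (1.48 and 1.08 log2 units). Cxcl5 and Cxcl3, also CXCR2 ligands, had their highest means on day 7 (29.2 and 8.47 CPM), with differences of 1.82 ± 0.32 (SE, adjusted p = 0.00521) and 2.15 ± 0.42 (SE, adjusted p = 0.00785). The monocyte chemokines Ccl2 and Ccl7 were highest on day 3 and lowest on day 23, where they differed by -1.14 and -1.22. Il6, which encodes interleukin 6, was called between days at low levels, 1.12, 2.22, 2.84, 1.34 and 1.42 CPM (adjusted p = 0.024), and Ccl5 and Cxcl10, chemokines for T cells, were lower on day 23 (-1.1 and -0.83 log2 units).

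Antigen presentation was also lowest on day 1. Of 12 MHC class I presentation genes 11 were lower on day 1 (10.6% of all genes; median log2 difference -1.01). B2m, the light chain of MHC class I, measured 844, 448, 418, 561 and 346 CPM at day 1, 1296, 1323, 1157, 561 and 1642 at day 3, 1194, 1146, 1643, 1650.0 and 1575 at day 7, 1284, 1046, 1170.0, 1233 and 1294 at day 15, and 1160.0, 1240.0, 1104, 982 and 1110.0 at day 23. The day 1 tumors were the lowest apart from day 3 replicate 4 at 561.0 CPM, and one day 1 tumor reached 844 CPM. The log2 difference was -1.2 ± 0.19 (SE, adjusted p = 0.000118). The heavy chain genes H2-K1 and H2-D1 and the immunoproteasome subunit Psmb8 differed on day 1 by -1.26, -1.23 and -1.45.

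All 10 MHC class II genes differed between days, and 9 were lower on day 1 (10.6% of all genes), 7 higher on day 15 (0.699%) and 4 higher on day 23 (11.2%). With those 3 tumors left out these counts were 10, 8 and 6. The letters CCAAT, on either strand, stood in 7 of 7 windows of the list (100%), against 41.1% of all genes, and are in capitals below. A CCAAT box is part of the SXY module on which CIITA and NF-Y act, but the rest of that module was not searched for. Each match is only a run of letters and was not tested as a site.
H2-Aa (chr17:34287774-34288073, minus strand): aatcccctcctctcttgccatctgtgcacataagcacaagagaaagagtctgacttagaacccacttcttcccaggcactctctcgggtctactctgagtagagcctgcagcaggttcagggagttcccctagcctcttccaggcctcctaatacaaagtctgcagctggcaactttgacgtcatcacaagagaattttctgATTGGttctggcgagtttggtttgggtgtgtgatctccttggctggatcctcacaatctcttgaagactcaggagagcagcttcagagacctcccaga
H2-Eb1 (chr17:34305617-34305916, plus strand): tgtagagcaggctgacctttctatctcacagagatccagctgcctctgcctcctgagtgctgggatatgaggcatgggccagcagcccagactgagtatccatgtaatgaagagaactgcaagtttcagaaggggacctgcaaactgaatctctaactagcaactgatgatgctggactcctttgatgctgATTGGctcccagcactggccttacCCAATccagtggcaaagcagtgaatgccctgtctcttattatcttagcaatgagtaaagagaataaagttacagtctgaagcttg
H2-Aa, the alpha chain of the class II molecule I-A, measured 81.7, 42.1, 67.5, 57.4 and 42.9 CPM at day 1, 219.9, 143, 306, 61.2 and 268 at day 3, 324, 243, 203, 315 and 398 at day 7, 495, 408, 221, 478 and 496 at day 15, and 313, 547, 425, 312 and 402 at day 23. Day 1 overlapped only with day 3 replicate 4, at 61.2 CPM, while days 7, 15 and 23 overlapped. The differences were -2.4 ± 0.29 (SE, adjusted p = 1.11e-05) on day 1 and 1.11 ± 0.23 (SE, adjusted p = 0.0174) on day 15. Cd74, the invariant chain, measured 269.9, 165, 219, 161 and 128 CPM at day 1, 438, 423, 895, 206 and 722 at day 3, 1017, 701, 595, 881 and 1140.0 at day 7, 1246, 1157, 608, 1231 and 1207 at day 15, and 721, 1494, 1021, 817 and 1093 at day 23, with the low day 15 value in the tumor rich in receptor reads and a day 3 tumor, at 206 CPM, in the range of day 1. Cd74 differed by -2.13 ± 0.28 (SE, adjusted p = 2.02e-05) on day 1, and H2-Eb1 and H2-DMb1, the beta chain of I-E and a subunit of the peptide editor H2-DM, by 1.33 ± 0.24 (SE, adjusted p = 0.00809) and 1.17 ± 0.21 (SE, adjusted p = 0.00824) on day 15. Zbtb46, a transcription factor of conventional dendritic cells, averaged 6.25, 7.44, 9.9, 14.6 and 15.6 CPM on days 1 to 23, higher on day 23 by 0.76 ± 0.12 (SE, adjusted p = 0.000255). In bulk RNA such differences cannot tell fewer cells of a type from less RNA per cell.

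**Figure D2:**
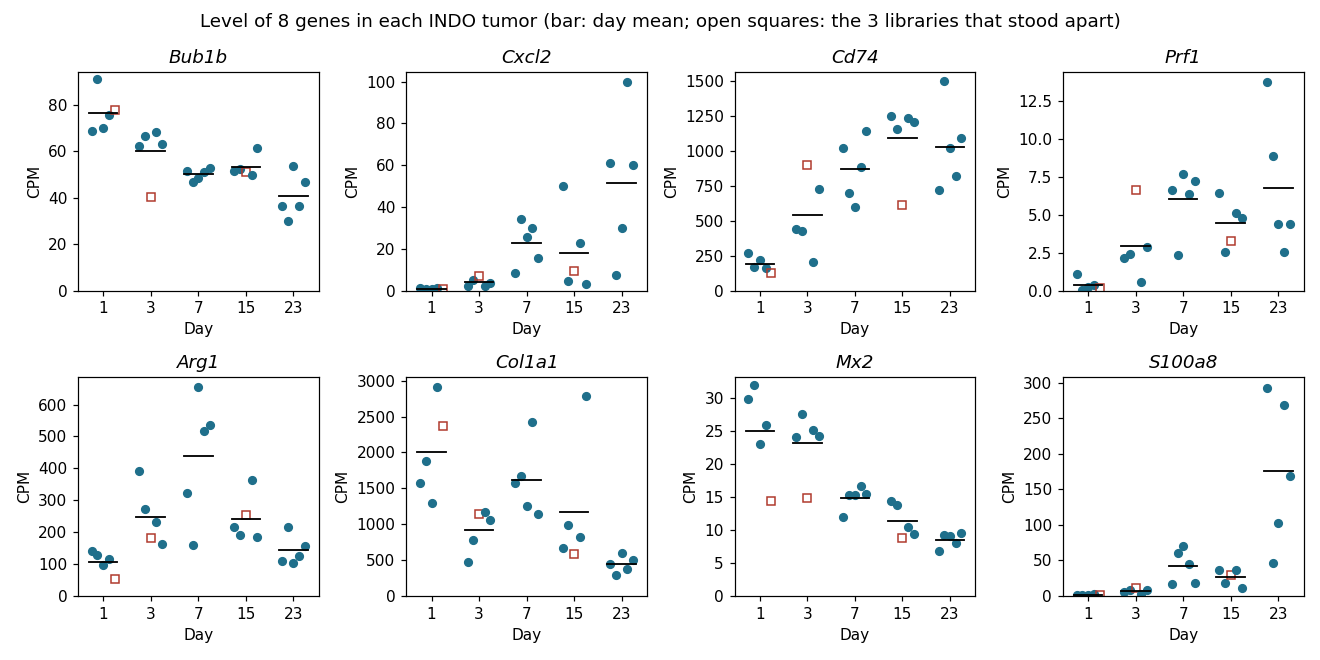
Level of 8 genes (Bub1b, Cxcl2, Cd74, Prf1, Arg1, Col1a1, Mx2 and S100a8) in each of the 25 INDO tumors, in CPM on a linear axis, by sampling day, with 1 point a tumor, the bar at the day mean and open squares for the 3 tumors that stood apart. Bub1b was highest and Cxcl2 lowest in all 5 day 1 tumors, and Arg1 had its highest mean on day 7.

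Cytotoxic genes had the same low start. Of 18 NK and cytotoxic lymphocyte genes, 17 were lower on day 1 (10.6% of all genes), with a median log2 difference of -2.26, and 15 were without the 3 tumors that stood apart. Gzmb, granzyme B, measured 4.65, 0.901, 2.38, 2.92 and 0.74 CPM at day 1, 9.09, 10.9, 9.27, 1.87 and 11.2 at day 3, 19.9, 9.2, 31.4, 23.2 and 22.2 at day 7, 14.8, 7.15, 6.78, 10.9 and 7.64 at day 15, and 19.1, 14.7, 8.05, 5.79 and 6.51 at day 23. Day 7 was highest and overlapped days 3, 15 and 23, and 3 day 1 tumors lay above a day 3 tumor at 1.87 CPM. The differences were -2.29 ± 0.44 (SE, adjusted p = 0.000713) on day 1 and 1.66 ± 0.33 (SE, adjusted p = 0.00956) on day 7. Prf1, perforin, measured 1.11, 0.0751, 0.214, 0.398 and 0.189 CPM at day 1, 2.14, 2.4, 6.65, 0.598 and 2.84 at day 3, 6.61, 2.33, 7.66, 6.33 and 7.21 at day 7, 6.43, 2.54, 3.27, 5.12 and 4.76 at day 15, and 13.7, 8.87, 4.36, 2.52 and 4.37 at day 23, with 1 day 1 tumor in the range of day 3, and differed by -3.57 ± 0.59 (SE, adjusted p = 0.000183) on day 1. Il2rb, a receptor chain for interleukins 2 and 15, and Fasl, the death ligand, differed on day 1 by -2.64 and -2.62. These genes hold few reads, and Nkg7 and Gzmk averaged 0.218 and 0.027 CPM on day 1.

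Genes of the prostaglandin pathway itself were called between days no more often than all genes. Of 22 members tested, 5 differed between days (29.8% of all genes). Lower on day 1 were 3 (10.6%), and lower on day 23 was 1 (8.58%). Higher on day 7 were 2 (2.87%), and higher on day 3 was 1 (2.02%). Ptgs2, the inducible cyclooxygenase COX2, measured 48.6, 51.3, 58.9, 51.4 and 39.1 CPM at day 1, 87.4, 165, 129.8, 100.0 and 118 at day 3, 144, 169, 229, 177 and 242 at day 7, 268, 68.9, 209, 201 and 56.4 at day 15, and 175, 42.6, 173, 292 and 168 at day 23. Day 1 was low and even, and only 1 day 15 and 1 day 23 tumor reached down to its range. The log2 difference was -1.63 ± 0.34 (SE, adjusted p = 0.00135). Ptger2, the PGE2 receptor EP2, averaged 0.975, 2.1, 2.46, 2.43 and 1.9 CPM on days 1 to 23 and differed on day 1 by -1.14 ± 0.18 (SE, adjusted p = 0.000142). Tbxas1, thromboxane synthase, was higher on day 7 by 0.81 ± 0.23 (SE, adjusted p = 0.0497), a call lost in 24 of 33 alternative fits. Cbr1, a carbonyl reductase that can convert PGE2, was lower on day 23, with -0.50 ± 0.11 (SE, adjusted p = 0.00383). Ptgs1, Ptges, Hpgd and Ptger4, which encode COX1, the inducible PGE2 synthase, the enzyme that inactivates PGE2 and its receptor EP4, averaged 48.5, 35.7, 1.1 and 6.36 CPM on day 1 and 45.1, 36.4, 0.34 and 7.16 CPM on day 23. They were not called between days (adjusted p = 0.626, 0.128, 0.524 and 0.262).

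Il10, the anti-inflammatory cytokine that PGE2 can induce, measured 1.93, 0.326, 0.984, 0.48 and 0.276 CPM at day 1, 3.65, 4.45, 1.71, 3.07 and 1.93 at day 3, 2.61, 3.08, 4.48, 3.71 and 3.13 at day 7, 7.1, 2.73, 4.11, 4.86 and 3.94 at day 15, and 3.65, 1.97, 4.97, 3.42 and 4.2 at day 23. In 4 of 5 day 1 tumors it lay below every later tumor, and the fifth, at 1.93 CPM, overlapped 2 day 3 tumors. The difference on day 1 was -2.14 ± 0.37 (SE, adjusted p = 0.000307). Of 24 hypoxia and glycolysis genes, 8 were lower on day 1 (10.6% of all genes) and 4 higher on day 23 (11.2%), with a median of -0.53 on day 1. Without the 3 tumors that stood apart the counts were 5 and 5. Pfkfb3 and Hk2, regulators of glycolysis, differed on day 1 by -1.28 ± 0.23 (SE, adjusted p = 0.00042) and -0.85 ± 0.14 (SE, adjusted p = 0.000223), and Adm, adrenomedullin, by -1.34 ± 0.30 (SE, adjusted p = 0.00251). Ldha and Aldoa, enzymes of glycolysis, were not called (adjusted p = 0.368 and 0.145).

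Stress and death genes went both ways on day 1. Of 19 p53 targets, 5 were lower and 2 higher (10.6% of all genes each way, a share near that of the higher ones), the lower ones including Plk2, a stress-induced kinase (-0.96), Fas, the death receptor (-1.26), and Pmaip1, the BH3 protein NOXA (-0.71), and the higher ones Zmat3, an RNA-binding protein (0.58). Chac1, an ATF4 target that degrades glutathione, averaged 15.5, 7.31, 4.94, 3.91 and 3.12 CPM on days 1 to 23 and differed by 1.79 ± 0.25 (SE, adjusted p = 4.68e-05) on day 1. Ddit3, which encodes CHOP and is also induced through ATF4, differed by -0.74 (adjusted p = 0.00577).

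The lymphocyte genes called on day 3 rested on 1 tumor. Of 24 T cell genes 15, and of 9 B cell genes tested 8, were called higher on day 3 (2.02% of all genes), and without the 3 tumors that stood apart 0 of 24 and 0 of 8 were. Cd79b, a chain of the B cell receptor, measured 0.159, 0.125, 0.128, 0.137 and 0.138 CPM at day 1, 0.198, 0.050, 54.5, 0.104 and 0.101 at day 3, 0.0931, 0.155, 0.125, 0.24 and 0.263 at day 7, 0.271, 0.252, 0.239, 0.105 and 0.281 at day 15, and 0.0257, 0.177, 0.139, 0.171 and 0.0472 at day 23. Outside day 3 replicate 3 no tumor exceeded 0.281 CPM. The fitted day 3 difference of Cd79b, 6.13 ± 0.81 (SE, adjusted p = 0.000523), turned to -0.46 without that tumor. Cd3e, a chain of the T cell receptor complex, measured 39.6 CPM in it and 0.30 to 5.18 CPM in the other 24. In that tumor, muscle genes summed to 6331 CPM, against 29.3 to 576 CPM in the other 4 of day 3, and the part of such tissue in the lymphocyte values was not tested.
Without the 3 tumors, T cell genes took another shape: 14 of 24 were lower on day 1 and 10 higher on day 15, where 2156 and 222 of 20825 genes were in that fit. Cd8a, which marks cytotoxic T cells, averaged 0.289 ± 0.137 CPM on day 1 and 7.92 ± 3.96 CPM on day 15 (SD, n = 5), and its day 1 difference was -4.35 ± 0.83 (SE, adjusted p = 0.000677). Cd4 averaged 1.22, 11.2, 2.89, 2.27 and 1.69 CPM on days 1, 3, 7, 15 and 23, with its day 3 value carried by the same tumor.

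Some interferon-stimulated genes were higher on day 3. Of 24, 8 were higher on day 3 (2.02% of all genes) and 13 lower on day 23 (8.58%), and without the 3 tumors 12 and 17. Under housekeeping scaling 3, and with muscle reads as a covariate 5, were higher on day 3, and 13 were lower on day 23 under both. Mx2, an antiviral GTPase, measured 29.8, 31.9, 23.1, 25.9 and 14.4 CPM at day 1, 24.2, 27.7, 14.8, 25.2 and 24.2 at day 3, 12, 15.2, 15.3, 16.7 and 15.4 at day 7, 14.4, 13.8, 8.77, 10.4 and 9.42 at day 15, and 6.81, 9.22, 9.08, 7.99 and 9.53 at day 23. Days 1 and 3 were highest apart from 1 tumor of each, at 14.4 and 14.8 CPM, both among those that stood apart, and day 23, at 6.81 to 9.53 CPM, overlapped only with day 15. The differences were 0.74 ± 0.14 (SE, adjusted p = 0.00557) on day 3 and -1.08 ± 0.16 (SE, adjusted p = 9.34e-05) on day 23. Oasl2, of the oligoadenylate synthetase family, and Irf7, the master regulator of type I interferon, averaged 152, 199.8, 160.0, 118 and 91.3 and 80.1, 115, 99.2, 70.05 and 54.6 CPM on days 1 to 23. They were higher on day 3 by 0.64 ± 0.14 (SE, adjusted p = 0.015) and 0.61 ± 0.14 (SE, adjusted p = 0.0181) and their day 23 differences were -0.79 and -0.74. The letters GAAANNGAA, a core of the element bound by ISGF3, stood on either strand in 11 of 17 windows of the list (64.7%), against 9.76% of all genes. The named genes that separated day 3 from all other tumors changed little: Asxl2 and Usp8 were higher by 0.38 ± 0.09 (SE, adjusted p = 0.0178) and 0.27 ± 0.06 (SE, adjusted p = 0.0208), and Mettl1, a tRNA methyltransferase, was lower, with -0.46 ± 0.08 (SE, adjusted p = 0.00407).

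**Figure D3:**
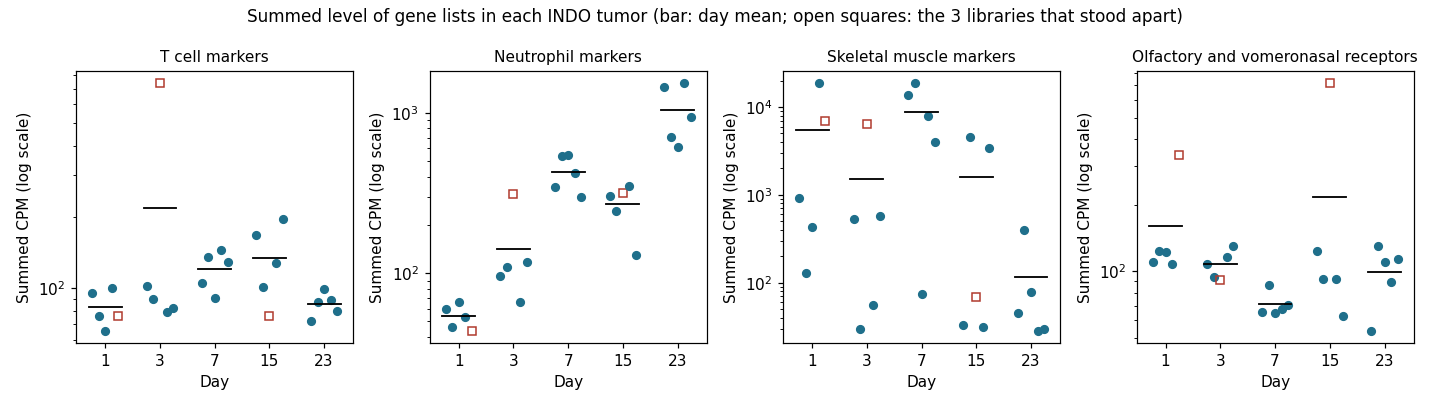
Summed CPM (log axis) of the T cell, neutrophil, skeletal muscle and olfactory and vomeronasal receptor genes in each INDO tumor by sampling day, with the bar at the day mean and open squares for the 3 tumors that stood apart. Day 3 replicate 3 reached 738 CPM of T cell genes, the 5 day 23 tumors held 611 to 1533 CPM of neutrophil genes, and muscle genes ran from 29 to 18720 CPM.

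A part of the macrophage genes was higher on day 7. Of 21, 10 were higher on day 7 (2.87% of all genes) and 4 lower on day 23 (8.58%), and without the 3 tumors that stood apart 11 and 7. With muscle reads as a covariate 3 were higher on day 7. Arg1, arginase 1 of myeloid cells, measured 140.0, 127, 98, 114 and 53.2 CPM at day 1, 392, 272, 182, 233 and 164 at day 3, 323, 159.6, 656, 517 and 536 at day 7, 216, 191, 255, 363 and 186 at day 15, and 108.8, 218, 104, 126 and 158 at day 23. In 3 of 5 day 7 tumors it was above every other tumor, and the lowest day 7 tumor lay among those of day 23. The differences were 1.33 ± 0.23 (SE, adjusted p = 0.00469) on day 7 and -1.18 ± 0.27 (SE, adjusted p = 0.00332) on day 1. Ccl6, a chemokine of macrophages in mice, measured 20.1, 21.2, 15.2, 29.4 and 28.6 CPM at day 1, 85.2, 53.3, 37.8, 37.7 and 24.1 at day 3, 78.2, 81.9, 279, 246 and 160.4 at day 7, 43, 27.6, 42.6, 66.5 and 40.9 at day 15, and 29.3, 44.6, 19.6, 30.2 and 30.8 at day 23, with 3 day 7 tumors above all others, and differed by 2.28 ± 0.24 (SE, adjusted p = 3.64e-05) on day 7. C1qa, C1qb and C1qc, which encode the complement C1q chains, were higher on day 7 by 0.77, 0.70 and 0.76, and Cd68, a lysosomal marker, by 0.84. Cd163, the hemoglobin scavenger receptor of resident macrophages, measured 75, 16.6, 32.4, 47.3 and 34.8 CPM at day 1, 462, 45.6, 10.2, 127 and 14.1 at day 3, 35.5, 42.6, 58.6, 438 and 241 at day 7, 25.8, 5.83, 34.7, 29 and 14.4 at day 15, and 7.35, 1.93, 3.99, 12.8 and 12.3 at day 23. On days 3 and 7 together 4 tumors measured 127 to 462 CPM and the other 6 measured 10.2 to 58.6 CPM, and day 23, at 1.93 to 12.8 CPM, was low throughout. Its differences were 2.39 ± 0.58 (SE, adjusted p = 0.0247) on day 7 and -3.14 ± 0.83 (SE, adjusted p = 0.0102) on day 23. Siglec1, a sialic acid receptor of macrophages, averaged 26.7, 34.2, 43.6, 24.4 and 17.7 CPM on days 1 to 23 and was not called (adjusted p = 0.067). Muscle genes also had their highest median on day 7, at 7959 CPM, and with muscle reads as a covariate 297 genes were called on that day, against 855, and without day 7 replicate 4 alone 53.

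Of 15 matrix metalloproteinases and inhibitors, 5 were higher on day 7 (2.87% of all genes), 3 on day 15 (0.699%) and 4 lower on day 1 (10.6%). Mmp13, collagenase 3, measured 179, 109.2, 125, 105 and 68.2 CPM at day 1, 315, 344, 309.7, 257 and 323 at day 3, 441, 614, 443, 333 and 406 at day 7, 585, 251, 287, 378 and 224 at day 15, and 418, 148, 305, 401 and 316 at day 23. Day 1 was below every later tumor but 1 of day 23, at 148 CPM. The differences were -1.55 ± 0.24 (SE, adjusted p = 0.000112) on day 1 and 0.85 ± 0.20 (SE, adjusted p = 0.024) on day 7. Mmp9, gelatinase B, averaged 139, 238, 526, 562 and 274 CPM on days 1 to 23 and was higher on days 7 and 15 by 0.99 ± 0.21 (SE, adjusted p = 0.0118) and 1.09 ± 0.20 (SE, adjusted p = 0.0105). Timp3, an inhibitor of these enzymes, shared that course (20.9, 39.1, 65, 66.3 and 24.8 CPM), and Mmp11, stromelysin 3, was higher on day 23 by 0.90 ± 0.14 (SE, adjusted p = 0.000134).

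Day 15 stood apart least. Besides MHC class II, 2 called genes had every day 15 tumor above all others: Kcnq3 and Il7. The same limits as for day 1 applied to this count, and 0.699% of all genes were called higher. Kcnq3, a subunit of the M-type potassium channel, measured 1.95, 2.93, 1.28, 2.76 and 2.82 CPM at day 1, 2.84, 1.27, 1.19, 2.57 and 1.44 at day 3, 2.36, 1.84, 3.2, 2.3 and 2.5 at day 7, 3.82, 5.39, 4.03, 4.48 and 6.28 at day 15, and 0.901, 2.75, 2.51, 1.86 and 2.41 at day 23, with no overlap, and differed by 1.14 ± 0.21 (SE, adjusted p = 0.0105). Il7, a growth factor of lymphocytes, averaged 3.63, 4.7, 4.82, 6.88 and 4.7 CPM on days 1 to 23 and differed by 0.63 ± 0.15 (SE, adjusted p = 0.0377). The call of Il7 was lost in 12 of 33 alternative fits. Cspg4, which encodes NG2 of pericytes, was higher on day 15 by 1.07 ± 0.18 (SE, adjusted p = 0.00482), and Nptxr, highest on day 1, was lowest on day 15 (log2 difference -1.0 ± 0.18 SE, adjusted p = 0.0088).

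Neutrophil genes had a steep course to day 23. All 15 tested were higher on day 23 (11.2% of all genes), with and without the 3 tumors that stood apart, and 12 were lower on day 1 (10.6%). Their median log2 difference was 2.90 on day 23 and -2.13 on day 1, against -0.01 and 0.01 over all genes. S100a8, a subunit of calprotectin, measured 1.24, 0.676, 1.28, 3.01 and 1.46 CPM at day 1, 5.52, 8.2, 10.6, 2.1 and 8.74 at day 3, 16, 61, 70.6, 44.8 and 17.6 at day 7, 36.4, 18.8, 29.4, 36.3 and 10.5 at day 15, and 293, 45.7, 102, 269 and 168 at day 23. In 4 of 5 day 23 tumors it was above every other tumor, and the fifth, at 45.7 CPM, lay in the range of day 7. The differences were -4.42 ± 0.55 (SE, adjusted p = 1.39e-05) on day 1, -1.75 ± 0.45 (SE, adjusted p = 0.0376) on day 3, 1.5 ± 0.36 (SE, adjusted p = 0.0251) on day 7 and 4.03 ± 0.34 (SE, adjusted p = 5.22e-08) on day 23. Retnlg, resistin-like gamma of mature neutrophils, measured 0.185, 0.15, 0.193, 0.123 and 0.103 CPM at day 1, 0.318, 0.65, 1.32, 0.208 and 0.608 at day 3, 1.95, 2.85, 5.4, 2.54 and 1.32 at day 7, 1.03, 2.52, 2.47, 2.84 and 0.374 at day 15, and 36.5, 6.74, 13.3, 40.3 and 26.8 at day 23. No day 23 tumor overlapped an earlier one, and no day 1 tumor a later one. Retnlg differed by 4.86 ± 0.35 (SE, adjusted p = 2.82e-09) on day 23. S100a9, the partner of S100a8, and Stfa2l1, a stefin of neutrophils, differed by 3.64 and 3.61, and Cxcr2, the receptor of the CXC chemokines above, by 1.78 ± 0.27 (SE, adjusted p = 0.000114). Ly6g, the marker of murine neutrophils, was at 0.0475, 0.0878, 0.157, 0.212 and 1.03 CPM on days 1 to 23, and Fpr2, a formyl peptide receptor, was above all earlier tumors on day 23 (log2 difference 2.17 ± 0.22 SE, adjusted p = 8.05e-07).

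Blood genes moved with them. Of 6 hemoglobin and erythroid genes tested, 5 were higher on day 23 (11.2% of all genes) and 4 lower on day 1. Hbb-bs, a beta globin, measured 4.65, 9.64, 2.48, 12.2 and 5.22 CPM at day 1, 22.5, 38.5, 78.8, 6.76 and 52.4 at day 3, 14.6, 7.75, 22.6, 19.3 and 12.1 at day 7, 22.7, 34.9, 29.1, 38.5 and 19.3 at day 15, and 122, 16.4, 74, 374 and 58.8 at day 23. The day 23 tumors were uneven, with 374 CPM in 1 and 16.4 CPM in another, and the difference was 2.76 ± 0.41 (SE, adjusted p = 0.000112). Neutrophil genes summed to 611 to 1533 CPM on day 23 and to at most 548 CPM before, and blood genes to 32.2 to 702 CPM on day 23 and to at most 163 CPM before. The part of blood RNA in the neutrophil result was not tested.

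Collagen and other stromal genes were lowest on day 23. Of 21 fibroblast, pericyte and matrix genes, 13 were lower on day 23 (8.58% of all genes) and 7 higher on day 1 (10.6%), with a median of -0.66 on day 23. With the 3 tumors left out, 14 were lower on day 23 and 4 higher on day 1. Col1a1, the alpha 1 chain of collagen I, measured 1580.0, 1882, 1295, 2918 and 2372 CPM at day 1, 470.3, 779, 1140.0, 1166 and 1059 at day 3, 1579, 1675, 1258, 2430.0 and 1141 at day 7, 674, 982, 586, 820.0 and 2783 at day 15, and 442, 293, 595, 369 and 495 at day 23. No day 23 tumor exceeded 595 CPM, and 1 tumor of day 3 and 1 of day 15, at 470.3 and 586 CPM, shared their range. The differences were 1.14 ± 0.26 (SE, adjusted p = 0.00293) on day 1 and -1.67 ± 0.31 (SE, adjusted p = 0.000891) on day 23. Lox, lysyl oxidase, which links collagen fibers, measured 39.1, 72.2, 41.6, 98.5 and 71.8 CPM at day 1, 85.8, 31.9, 38.8, 55.2 and 64.5 at day 3, 139, 65.1, 99.4, 173 and 123 at day 7, 55.3, 93.7, 67.6, 143 and 145 at day 15, and 23.3, 29.97, 35.6, 27.8 and 28.6 at day 23. No day 23 tumor exceeded 35.6 CPM, and 1 day 3 tumor, at 31.9 CPM, shared their range. Lox differed by 1.08 ± 0.22 (SE, adjusted p = 0.0102) on day 7 and -1.51 ± 0.26 (SE, adjusted p = 0.000501) on day 23. Col5a1, a chain of collagen V, had a day 23 difference of -1.33 ± 0.22 (SE, adjusted p = 0.000255), whereas Dcn and Pdgfra, of resting fibroblasts, were not called (adjusted p = 0.65 and 0.577). Of 18 skeletal muscle genes 14 were also lower on day 23. With muscle reads as a covariate 2690 genes were called on day 23, against 4132, and of the 21 stromal genes 8 were lower. The genes of any kind with the largest fall and no overlap on day 23 were Ssc5d (log2 difference -2.53 ± 0.35 SE, adjusted p = 5.02e-05), Usp13, Ncam1, an adhesion molecule of nerve and muscle, Atp1b1 and Dlg4, a scaffold protein (-2.14, -1.86, -1.82 and -1.68). With muscle reads as a covariate the difference of Usp13 was -0.82 (adjusted p = 0.0684, edgeR) and was not called.

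The epithelial list split. Of 13 genes, 4 were higher and 3 lower on day 23 (11.2% and 8.58% of all genes). Cldn4 and Cldn7, claudins of tight junctions, went opposite ways. Cldn4 measured 164, 184, 177, 164 and 159 CPM at day 1, 231, 242, 178, 213 and 199 at day 3, 256, 211, 281, 248 and 277 at day 7, 253, 335, 206, 304 and 407 at day 15, and 415, 455, 315, 338 and 332 at day 23 and was higher on day 23 by 0.67 ± 0.10 (SE, adjusted p = 0.000154). Cldn7 measured 26.1, 30.2, 34.9, 41.6 and 34.5 CPM at day 1, 19.6, 35.5, 24.8, 27.3 and 32.5 at day 3, 21.6, 38.8, 37.7, 31.2 and 25.5 at day 7, 16.8, 11.7, 15.8, 14 and 7.36 at day 15, and 3.81, 9.78, 15.5, 17.8 and 8.99 at day 23 and was lower on that day, with -1.19 ± 0.25 (SE, adjusted p = 0.00205), days 15 and 23 both lying below every tumor of days 1, 3 and 7. Epcam, the epithelial adhesion molecule, averaged 246, 269.9, 279.8, 334 and 477 CPM on days 1 to 23 (log2 difference 0.74 ± 0.10 SE, adjusted p = 3.35e-05 on day 23), and Cdh1, E-cadherin, was not called (adjusted p = 0.534).

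The protocadherin beta genes, a row of adhesion genes that are mostly known from neurons, were picked out after their values were seen, apart from Pcdhb16 to Pcdhb19, which the naming rule chose. They lie side by side on chromosome 18 (Pcdhb1 to Pcdhb22, 37264998 to 37521419, RefSeq GRCm38.p6). Of 22 annotated, 19 were tested, 18 differed between days (29.8% of all genes), and the same 18 were higher on day 23 (11.2%). Pcdhb16 measured 6.63, 9.82, 7.0, 6.52 and 6.75 CPM at day 1, 9.52, 6.37, 6.51, 6.94 and 8.56 at day 3, 14.9, 9.1, 10.1, 8.83 and 10.6 at day 7, 16.9, 25.9, 24.4, 22.1 and 28.7 at day 15, and 77.8, 43.6, 45.9, 42 and 35.3 at day 23. Every day 23 tumor was above every day 15 tumor, and every day 15 tumor above all of days 1, 3 and 7, which overlapped. The differences were 0.84 ± 0.14 (SE, adjusted p = 0.00504) on day 15 and 2.14 ± 0.13 (SE, adjusted p = 4.94e-10) on day 23. Pcdhb17, Pcdhb18 and Pcdhb19 averaged 6.75, 3.26 and 5.13 CPM on day 1 and 36.2, 20.5 and 32 CPM on day 23. From Pcdhb16 to Pcdhb22 all 7 genes had day 23 above all other tumors, which the naming rule required of Pcdhb16 to Pcdhb19. Under the limits used for day 1, 89 genes had every day 23 tumor above all others. The share of all genes without overlap was not counted. Copies of such a family share reads, so the share of a single member is uncertain. Of the neighbouring gamma family 22 genes were tested, whose log2 differences on day 23 ran between -0.69 and 0.31, and 0 were called higher. Of 21 beta genes tested against control, 0 had a course called different by edgeR and 4 an unadjusted p under 0.05, and in control tumors Pcdhb16 averaged 6.96, 10.5, 14.2, 29.8 and 54.8 CPM on days 1 to 23.

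**Figure D4:**
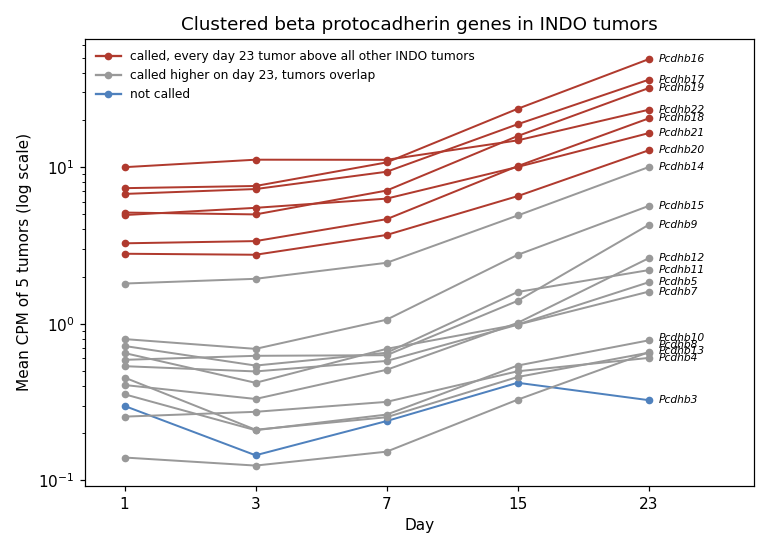
Mean CPM (log axis) of the 19 tested protocadherin beta genes on each sampling day in INDO tumors, 5 a day. In red are the 7 genes, Pcdhb16 to Pcdhb22, with every day 23 tumor above all others, in gray the others called higher on day 23, and in blue Pcdhb3, which was not called.

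Of 13 mitochondrially encoded genes 7 were higher on day 1 (10.6% of all genes) and 5 lower on day 23 (8.58%), the 5 being 2 without the 3 tumors that stood apart, 3 under housekeeping scaling and 0 with muscle reads as a covariate. The gene mt-Cytb, cytochrome b, averaged 1960.0, 1084, 1592, 885 and 895 CPM on days 1 to 23 (log2 difference 0.90 ± 0.20 SE, adjusted p = 0.00293). All genes with the prefix mt- together took 3.29% to 14% of the counts in single tumors. The median of this share was highest on day 7, at 8.32%, against 5.76% on day 1. Of 17 circadian clock genes 5, of 18 endothelial genes 3 and of 10 EMT regulators 2 differed between days, shares near or below the 29.8% of all genes, and of 8 mast cell, 11 skin and 9 adipocyte genes tested 0 did by edgeR (1, 0 and 1 at an unadjusted p under 0.05).

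Steps between neighbouring days were called for fewer genes, and their counts rested on few tumors. Day 3 against day 1 gave 790 genes higher (3.78%) and 327 lower (1.56%), day 7 against day 3 gave 91 (0.435%) and 89 (0.426%), day 15 against day 7 gave 5 (0.0239%) and 1 (0.00479%), and day 23 against day 15 gave 51 (0.244%) and 116 (0.555%). Without the 3 that stood apart the 4 steps held 4, 651, 0 and 254 calls, so that the order of the steps changed. The day 3 step held 95 calls without day 1 replicate 5 alone, and the day 7 step 0 without day 7 replicate 4 (2799 genes at an unadjusted p under 0.05, edgeR). Scaling by housekeeping genes moved its split to 446 higher and 1227 lower, and that of day 7 against day 3 to 192 and 35. The 6 genes of the day 15 step were Pcdhb15 to Pcdhb19, higher, and Ccl6, lower (log2 difference -1.94 ± 0.35 SE, adjusted p = 0.0467), with 2214 genes at an unadjusted p under 0.05 and 32 higher and 63 lower by DESeq2. That count moved by over 1.5 times in 21 of 25 fits with 1 tumor left out, between 0 (2156 genes at an unadjusted p under 0.05 by edgeR) and 13. From day 15 to day 23, 7 of 15 neutrophil genes were higher and 8 of 21 stromal genes lower, among them Retnlg (log2 difference 3.73 ± 0.56 SE, adjusted p = 0.00578) and Lox (log2 difference -1.81 ± 0.31 SE, adjusted p = 0.0119). Without day 23 replicate 1 that step held 10 calls.

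Whether these courses were those of untreated tumors was asked with the treatment-by-day interaction over 45 tumors. Of 23587 genes tested, 456 had a course that differed between INDO and control tumors (1.93%), whereas 7169 differed between days in controls (30.4%). The count ranged with single tumors left out from 68, without control day 15 replicate 2, to 1019, without INDO day 23 replicate 2, and was 248 without the 3 libraries of over 300 CPM of receptor reads. The lists of mitosis, replication, hypoxia, interferon-stimulated genes, MHC class I, cytotoxic lymphocytes, epithelium and muscle held 0 such genes, with 0, 1, 5, 8, 0, 11, 2 and 10 genes at an unadjusted p under 0.05 by edgeR, which 17.6% of all genes had. Bub1b averaged 76.5, 60.05, 49.9, 53.2 and 40.6 CPM in INDO tumors and 73.2, 71.5, 62.3, 54.1 and 34.4 CPM in control tumors on days 1, 3, 7, 15 and 23, and S100a8 1.53, 7.03, 42, 26.3 and 176 CPM in INDO tumors and 5.68, 15.3, 81.6, 189 and 120.4 CPM in control tumors (interaction adjusted p = 0.584 and 0.16). Of 16 neutrophil genes 3 had a course called different (18.8%, against 1.93% of all genes), Csf3r, Retnlg and Il1r2. In all, 10 of the 16 had an unadjusted p under 0.05 by edgeR. The 3 stayed called without the 3 tumors that stood apart, and Retnlg and Il1r2 without the libraries of over 300 CPM of receptor reads. A p above the threshold does not show that the courses were alike, and controls were only 3 on days 15 and 23.

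Stromal, myeloid and lymphoid lists held genes whose course was called different, but many of these calls, in lists of each kind, depended on which libraries were kept. Of 21 fibroblast, pericyte and matrix genes 9 were called (4 without the libraries of over 300 CPM of receptor reads), of 21 macrophage genes 5 (Adgre1, Csf1r, Mertk, Maf and Chil3; only Chil3 without those libraries) and of 15 metalloproteinase genes 3 (Mmp19, Adamts4 and Adamts5, also without them), against 1.93% of all genes. Of 13 mitochondrially encoded, 14 dendritic cell, 24 T cell and 18 endothelial genes 3, 3, 4 and 3 were called. Without the libraries of over 300 CPM of receptor reads 0, 2, 0 and 1 were, and without the 3 tumors that stood apart 3, 6, 6 and 6. Mmp19, with the smallest interaction p among well expressed genes, measured 21.8, 19.6, 19, 24.6 and 17.5 CPM at day 1, 39.5, 26.5, 17.8, 29.5 and 22.6 at day 3, 24, 29.4, 26.9, 36.9 and 38.1 at day 7, 33.4, 18.4, 21, 28.5 and 22.8 at day 15, and 21.2, 14.3, 22.5, 25.8 and 18.6 at day 23 in INDO tumors. In control tumors it measured 72.7, 84.5, 81.7 and 94.2 CPM at day 1, 58.4, 64.3, 44.1, 49.5 and 41.9 at day 3, 56.3, 43.2, 56.7, 39.3 and 52 at day 7, 21.2, 29.5 and 24.5 at day 15, and 15.5, 26.7 and 18.6 at day 23. Control tumors were higher on days 1, 3 and 7 with no overlap, narrowly so on day 3 (41.9 against 39.5 CPM) and day 7 (39.3 against 38.1 CPM). By day 15 and day 23 the groups overlapped (interaction adjusted p = 0.00126). Ccl6 averaged 22.9, 47.6, 169, 44.1 and 30.9 CPM in INDO tumors and 147, 132, 161, 29.99 and 43.5 CPM in control tumors on days 1 to 23, so that INDO tumors had a day 7 peak and control tumors were high from day 1 (adjusted p = 0.00919). Col15a1, a collagen of basement membranes, averaged 49.1, 32.4, 92.1, 104 and 46 CPM in INDO tumors and 98.6, 81.9, 108, 39.1 and 62.4 CPM in control tumors (0.00919), and Lox 64.7, 55.3, 119.9, 101 and 29.1 CPM in INDO tumors and 129.9, 180.4, 250.2, 49 and 86.3 CPM in control tumors (0.0172). Vgll3, a cofactor of TEAD factors, and Cd200r1, an inhibitory myeloid receptor, were the other genes named by the rule (0.00919 and 0.00919). Il1b averaged 31.2, 60.6, 147, 108.6 and 281 CPM in INDO tumors, with its highest mean on day 23, and 66.7, 98.1, 216, 379 and 135 CPM in control tumors, with its highest on day 15 (0.0494), a difference not called without the 3 tumors that stood apart or without the libraries of over 300 CPM of receptor reads. Cd163 averaged 41.2 ± 21.8 CPM in INDO tumors and 783 ± 136 CPM in control tumors on day 1 (SD, n = 5 and 4), but its interaction missed the threshold (adjusted p = 0.0686). Of the 8 B cell genes called, 0 remained called without the 3 tumors that stood apart. Without the libraries of over 300 CPM of receptor reads, a fit that kept day 3 replicate 3, Pax5, Igkc and Jchain did. Adipocyte genes summed to 38.6 to 97.3 CPM in INDO tumors and 97.2 to 236 CPM in control tumors on day 1, and their part in the stromal differences was not tested.

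**Figure D5:**
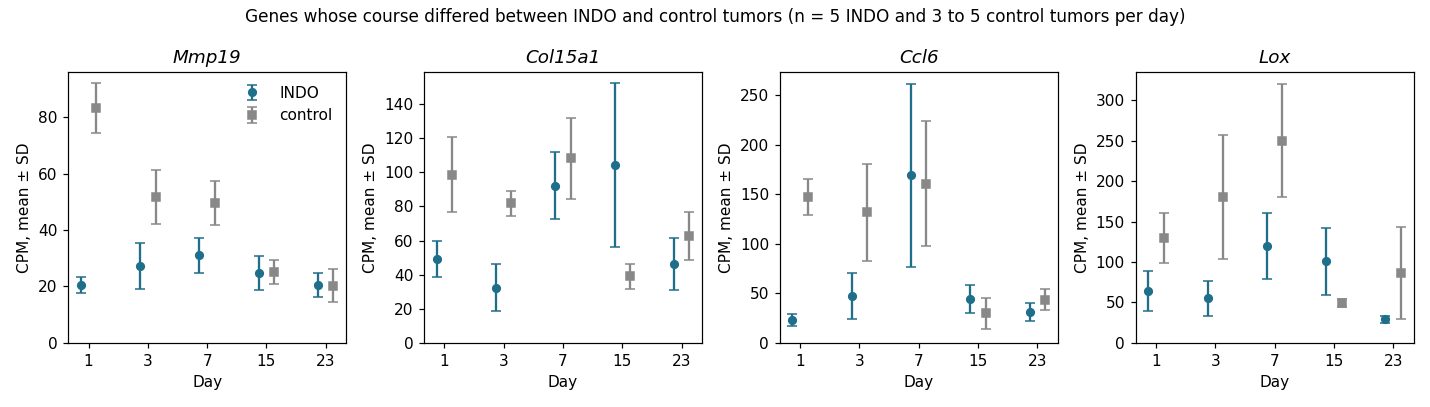
Mean level of Mmp19, Col15a1, Ccl6 and Lox, whose course differed, in INDO and control tumors by sampling day (CPM, linear axis, error bars SD; INDO n = 5 a day, control n = 4, 5, 5, 3 and 3). On day 1 each mean was lower in INDO than in control tumors, for Ccl6 at 22.9 CPM in INDO tumors and 147 CPM in control tumors.

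Against 6 Gy + INDO, 4848 of 26341 genes (18.4%) had another course over the same days, but this count rests on a few libraries. Without the 10 INDO and 6 Gy + INDO libraries that held over 300 CPM of receptor reads it was 0 (3587 genes at an unadjusted p under 0.05, edgeR), a fit that kept 1 of 4 tumors of 6 Gy + INDO on day 3, assumed to vary like the other groups, and 2 of 5 on day 7, without the 3 INDO tumors that stood apart it was 495, and without INDO day 15 replicate 3 or INDO day 1 replicate 5 alone it was 2147 or 2339. Of these 10 libraries 8 were 6 Gy + INDO, 3 of them on day 3 and 3 on day 7. For this reason only values are given here: Pcdhb16 averaged 7.34, 7.58, 10.7, 23.6 and 48.9 CPM in INDO tumors and 8.11, 10.1, 9.01, 18.4 and 35.4 CPM in 6 Gy + INDO tumors on days 1 to 23, and H2-Aa 58.3, 199.6, 297, 419.6 and 400.0 CPM in INDO tumors and 37.9, 47.9, 150.5, 226 and 337 CPM in 6 Gy + INDO tumors.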

How the data were processed

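Total RNA of 94 tumors was sequenced from stranded total RNA libraries. The authors deposited 1 table of expected counts of 49080 genes, in which reads that fit several genes can be shared between them. Per the labels, the submitters' processing notes name build mm10 and the tools cutadapt, STAR and Partek (11.0.24.0328) without a role for each, and the counting tool and gene annotation are not given in the sources used here. Treatment, day and replicate come from the sample labels, and 0 columns were left without a sample. Expected counts were rounded to whole numbers. No pair of tumors agreed within sampling noise.

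The 25 INDO tumors entered 1 fit in R 4.3.3 with edgeR 4.0.16 (filterByExpr by day, TMM, quasi-likelihood F test, 1 mean per day), in which 20897 genes were tested for a difference between days, for each day against the mean of the other 4, and for each step. Genes with a Benjamini-Hochberg adjusted p under 0.05, taken over all tested genes, were called. SE is the log2 difference over the square root of F. Separate fits asked whether the course differed from control (45 tumors) and from 6 Gy + INDO (49 tumors). Levels are CPM with TMM library sizes of all 94 tumors. Nothing states that replicate numbers mark shared animals or days, so p-values measure only the spread between single tumors of a day.

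The tumors, gene lists and naming rule were chosen with earlier results of these data known. Named were, for each day, up to 5 called genes a direction with the largest difference, mean log2 CPM not under 1 and no overlap with other days, up to 4 called members a list with the smallest p, 12 fixed genes, and for each interaction the 5 genes with the smallest p. Genes named beside these to describe a list were chosen after their values were seen, and some genes are not reported here. Alternatives were RLE factors, 14 housekeeping genes, no filter on low counts, DESeq2 1.42.0, all 94 tumors in 1 fit, a replicate block, limits of unadjusted p under 0.05 and 2-fold, leaving out days, single tumors or the 3 that stood apart and, added after seeing the data, muscle reads as a covariate and leaving out 11 libraries over 300 CPM of receptor reads. The fits were tested on simulated data. Sequences are from RefSeq (GRCm38.p6).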

Additional observations from a re-analysis of the deposited data

Results flagged for a closer look

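Of 215 sets of 5 tumors of 1 day checked, over 43 genes and library measures, 28 (13%) held a tumor farther from the rest than Dixon's limit of 0.71. The limit gives about 5% for normally spread values, which CPM were not shown to be. The genes were also chosen after their values were seen, so an excess over 5% does not measure chance. Of the 28, 9 lay in day 3 replicate 3. In that tumor the B cell, T cell, neutrophil and muscle genes summed to 1585, 738, 314 and 6331 CPM, Cd79b, Cd3e and Acta1 measured 54.5, 39.6 and 332.5 CPM, all above the other 4 tumors of that day, and Bub1b and Mx2 measured 40.4 and 14.8 CPM, below them. Day 15 replicate 5 was high in Bub1b (61.4 CPM), Plk1 (44.5 CPM) and Col1a1 (2783 CPM), against at most 52.3, 23.7 and 982 CPM in the rest of its day.

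Receptor reads stood apart in day 1 replicate 5 (338 CPM) and day 15 replicate 3 (717 CPM). Day 7 replicate 2 (87.2 CPM) was above the rest of its day (64.6 to 70.1 CPM) but within the range of the other days. Day 15 replicate 3 was low in Cd74 (608 CPM), day 7 replicate 2 in Prf1 (2.33 CPM), day 3 replicate 4 in Gzmb (1.87 CPM) and day 15 replicate 4 in Cd79b (0.105 CPM). Cd163 was high in day 3 replicate 1 (462 CPM). Pcdhb16 was high in day 1 replicate 2 (9.82 CPM), day 7 replicate 1 (14.9 CPM) and day 23 replicate 1 (77.8 CPM), the last also the largest library of its day at 89.0 M counts. Muscle genes and Acta1 were high in day 23 replicate 2 (394 and 12.0 CPM), skin genes in day 15 replicate 1 (1587 CPM) and blood genes in day 23 replicate 4 (702 CPM).

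For a part of the genes described here, chosen after their values were seen, 66 interactions were checked. Vgll3, Cd200r1 and other genes called above were not among them. By edgeR 7 courses differed between INDO and control tumors (1.93% of all genes): Mmp19 (adjusted p = 0.00126), Col15a1 (0.00919), Ccl6 (0.00919), Lox (0.0172), Cd79b (0.0295), Retnlg (0.043) and Il1b (0.0494). Mmp19, Col15a1 and Ccl6 had been named for their small interaction p. Against 6 Gy + INDO tumors 11 courses differed (18.4% of all genes): Retnlg (adjusted p = 0.00917), Col15a1 (0.00917), Kcnq3 (0.0102), Lox (0.0102), Ccl6 (0.0126), S100a8 (0.0221), Col1a1 (0.0238), H2-Aa (0.0262), Pcdhb16 (0.0279), Cd79b (0.0343) and Cd3e (0.0434). The values of Cd79b and Cd3e rest on day 3 replicate 3, and Il1b was not called against control without the 3 tumors that stood apart. No course was called different from 6 Gy + INDO without the 10 libraries rich in receptor reads, a fit with 1 tumor of 6 Gy + INDO left on day 3 (3587 genes at an unadjusted p under 0.05, edgeR).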

How the results depend on the processing

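The count of 6230 genes between days kept to within 1.5 times under RLE factors (6191), housekeeping scaling (6225), DESeq2 (7780), all 94 tumors in 1 fit (7609), muscle reads as a covariate (4999), no filter (4680) and leaving out the 3 tumors (6391, of which 5322 were the same genes), but was 2143 without day 1 and 3514 without day 23. With single tumors left out it ran between 5081 and 7078, the day 1 count (4429) between 3042 and 5188, day 3 (593) between 221 and 749, day 7 (855) between 53 (without day 7 replicate 4) and 1862, day 15 (188) between 47 (without day 15 replicate 5) and 312, and day 23 (4132) between 2423 (without day 23 replicate 1) and 4567. Day 3 against day 1 (1117) ran between 95 and 2100, day 7 against day 3 (180) between 0 (without day 7 replicate 4; 2799 genes at an unadjusted p under 0.05 by edgeR) and 632, day 15 against day 7 (6) between 0 and 13, day 23 against day 15 (167) between 10 and 303, INDO against control (456) between 68 and 1019, and INDO against 6 Gy + INDO (4848) between 2147 and 6203. Housekeeping scaling gave 1006 for day 3 and 195 for control, and moved the median of all genes for day 3 against day 1 to -0.136 from -0.0117. No filter gave 388 for day 7, 2703 for day 23, 612, 31 and 90 for the steps to days 3, 7 and 23, and 303 for control. DESeq2 gave 1460 and 380 for days 7 and 15, 1839, 692, 95 and 597 for the 4 steps, and 1753 for control. Without the 3 tumors day 3 held 213 and day 7 1628, the steps 4, 651, 0 (2103 at an unadjusted p under 0.05 by edgeR) and 254, control 961 and 6 Gy + INDO 495. All 94 tumors in 1 fit gave 1050 and 436 for days 3 and 15, and 592 and 18 for the steps to days 7 and 15. Muscle reads as a covariate gave 297 and 2690 for days 7 and 23 and 22 for the step to day 15. The limits of p and 2-fold gave 1482, 343 and 1366 for days 1, 15 and 23, and 1044, 548 and 912 for the later steps. Without libraries over 300 CPM of receptor reads control held 248 and 6 Gy + INDO 0 (3587 at an unadjusted p under 0.05, edgeR). Tumors of the same replicate number did not deviate together (50 pairs of groups, 15 with a correlation over 0.1, median -0.121). A replicate block gave 4747 genes between days, 94, 450 and 90 for days 3, 7 and 15, 518, 4 and 0 for the first 3 steps (1853 at an unadjusted p under 0.05 for the last), and 110 for control. The causes of these changes were not tested. Leaving out days and the limits of p and 2-fold were applied to counts only, not to single genes. Of 157 gene results named, 105 kept direction and call, or the lack of a call, under all other alternatives. The call was lost under at least 1 of them in 48, and 6 turned over on day 3. With single tumors left out these log2 differences ran between -0.0065 and 3.02 for Cd2, -0.61 and 9.41 for Igkc, -0.0672 and 7.36 for Jchain, -0.46 and 6.46 for Cd79b, -0.0131 and 2.86 for Cd4, and -0.61 and 2.88 for Cd3e, each lowest without day 3 replicate 3, and leaving out the 3 tumors gave -0.0536 (Cd2), -0.67 (Igkc), -0.44 (Cd79b), -0.0717 (Cd4) and -0.69 (Cd3e). The depth of 24 to 89.0 M counts leaves genes under 1 CPM, such as most lymphocyte genes on day 1, with few reads a tumor.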

Other observations

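Of 10 regulators of epithelial-mesenchymal transition, Zeb2 averaged 104, 142, 177, 129 and 99.7 CPM on days 1, 3, 7, 15 and 23 of INDO tumors and was higher on day 7 by 0.60 ± 0.11 (SE, adjusted p = 0.00624), and Snai2, which encodes SLUG, averaged 2.52, 1.49, 1.34, 1.68 and 0.909 CPM and was higher on day 1 by 0.96 ± 0.22 (SE, adjusted p = 0.00275). Zeb2 is also expressed by macrophages and NK cells, and its part from tumor cells was not tested. Endothelial genes were called for 3 of 18 members, all lower on day 23: Eng (log2 difference -0.60 ± 0.12 SE, adjusted p = 0.00197), Flt1 (log2 difference -0.39 ± 0.11 SE, adjusted p = 0.0123) and Plvap (log2 difference -0.61 ± 0.17 SE, adjusted p = 0.0164). Of 17 circadian clock genes, Per3 was higher on day 1 (log2 difference 0.63 ± 0.17 SE, adjusted p = 0.0101) and Ciart on day 23 (0.70 log2 units), whereas the time of day of sampling was not given in the sources used here.

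Hspa8, the constitutive HSC70 chaperone, averaged 1345, 1615, 1795, 1959 and 2409 CPM, higher on each day than on the one before it, and was higher on day 23 (log2 difference 0.51 ± 0.12 SE, adjusted p = 0.00526). Plekhs1 averaged 0.597, 2.3, 7.6, 9.19 and 3.5 CPM on days 1 to 23, with its highest mean on day 15 (log2 difference 1.9 ± 0.27 SE, adjusted p = 0.00167). Phyhd1 separated day 7 from all other tumors, averaging 8.49, 12.7, 17.5, 12.8 and 10.6 CPM (log2 difference 0.68 ± 0.09 SE, adjusted p = 0.000714), and Myzap did so in the other direction (6.1, 5.08, 2.99, 4.51 and 4.67 CPM, log2 difference -0.75 ± 0.14 SE, adjusted p = 0.00721). Myzap was also called different in its course between INDO and control tumors (adjusted p = 0.0209, edgeR), with control tumors averaging 7.39, 6.78, 7.12, 5.13 and 4.43 CPM.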
